A study of Mus musculus with 12 samples.

Results

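The genes described here are 10 transcripts that neutrophils and their precursors are known for: S100a8 and S100a9, which form calprotectin, the azurophil granule genes Elane, Mpo, Prtn3 and Ctsg, and the specific granule genes Ngp, Ltf, Camp and Lcn2. They were taken by symbol from the count table of all 12 libraries, and 10 of 10 had a row among its 27179 genes. All 10 passed the filter on low counts in every comparison. RNA was measured in dendritic cells, which take up and present antigens, grown from mouse bone marrow with GM-CSF, and in the exosomes (small secreted vesicles) of the medium of those cultures.

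Neutrophils store antimicrobial proteins in granules that are filled in a fixed order as the cells mature. Azurophil granules are filled first, in promyelocytes, and carry the serine proteases elastase (Elane), proteinase 3 (Prtn3) and cathepsin G (Ctsg) with myeloperoxidase (Mpo), which makes hypochlorous acid. Specific granules are filled later and carry the iron-binding proteins lactoferrin (Ltf) and lipocalin 2 (Lcn2), the cathelicidin precursor (Camp) and neutrophilic granule protein (Ngp), a relative of the cathelicidins and cystatins. S100a8 and S100a9 are calcium-binding proteins that make up much of the neutrophil cytosol and are also made by monocytes. Marrow grown with GM-CSF gives rise to granulocytes as well as to dendritic cells and macrophages.

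The 12 libraries formed 4 groups of 3, each library of a group coming from a different mouse. WT cells and WT exosomes came from mice 33 and 42 (female) and 46 (male), and the other two groups came from mice 151, 152 and 153 (all male), labelled as lacking both Sidt1 and Sidt2, which are related to nematode sid-1, a gene whose product carries double-stranded RNA across membranes. All cultures were of C57Bl/6 femur marrow, kept for 7 days with 10% fetal calf serum and, as the source of GM-CSF, 10% medium of X-63 cells. The sources used here give no ages. The labels' protocols name no sorting step, so a library holds RNA of every cell type of its culture, and vesicles of serum and of X-63 medium may be among the exosomes. The check of the targeted genes held for Sidt2, at 169 to 323 CPM (counts scaled to a common library size by TMM) in WT libraries and 0.632 to 2.39 CPM in those labelled DKO. Sidt1 went against the label, at no more than 0.411 CPM in WT libraries and 29.0 to 59.5 CPM in those labelled DKO, so the groups are called by their label throughout.

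Libraries held 7215083 to 32273898 counts, and a count of 0 allows up to 3 counts, or 0.0837 to 0.437 CPM. The summed level of 12 dendritic cell markers, among them Itgax, Cd74 and the MHC class II genes, was 14230 to 17960 CPM in WT cells and 10560 to 14770 CPM in cells labelled DKO, and 5166 to 6146 and 3223 to 3606 CPM in the exosomes. Exosomes and cells separated on the first principal component, with 52.8% of the variance. WT exosomes of mouse 33 stood apart on the second component, at 64.6, and exosomes labelled DKO of mouse 152 at -43.0, with the other 10 libraries between -15.2 and 13.4. For the 10 genes, calls, spreads and likeness that rest on these libraries are given with and without them. Calls of other named genes were not repeated without them.

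Several of the genes lie near each other, by RefSeq positions on GRCm38.p6, the assembly of mm10. S100a8 (chr3:90669071-90670034) and S100a9 (chr3:90692630-90695721) are 22.6 kb apart. Prtn3 (chr10:79879667-79883174) ends 3.14 kb before Elane (chr10:79886312-79888216). Camp (chr9:109847377-109849456), Ngp (chr9:110419808-110423012) and Ltf (chr9:111019292-111042766) lie on chromosome 9, in that order, and 63.9 Mb separate Camp from Sidt2. Mpo (chr11:87793784-87804412), Ctsg (chr14:56099885-56102574) and Lcn2 (chr2:32384637-32387739) stand alone.

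C/EBP factors and PU.1 are known to drive granule genes, so the 250 bases before each start site (RefSeq, GRCm38.p6) were searched on both strands for TTNNGNAA, the core of C/EBP sites, and GAGGAA, the core of PU.1 sites, which do not overlap in these 10 windows. The first was found before 5 of the 10 genes and in 36.9% of 32841 windows of the same length, and the second before 7 of the 10 and in 23.3% of windows. All 4 azurophil granule genes held GAGGAA and none held TTNNGNAA. Of the specific granule genes, Ngp held 3 matches to TTNNGNAA, Ltf 2 and Lcn2 1, and Camp held neither motif. The stretches before Prtn3 (chr10:79879417-79879666, + strand), Elane (chr10:79886062-79886311, + strand), Ngp (chr9:110419558-110419807, + strand) and Ltf (chr9:111019042-111019291, + strand) are shown 5′ to 3′ with matches in capitals, as an adjacent pair of azurophil granule genes and the pair of specific granule genes with most C/EBP matches.
Prtn3: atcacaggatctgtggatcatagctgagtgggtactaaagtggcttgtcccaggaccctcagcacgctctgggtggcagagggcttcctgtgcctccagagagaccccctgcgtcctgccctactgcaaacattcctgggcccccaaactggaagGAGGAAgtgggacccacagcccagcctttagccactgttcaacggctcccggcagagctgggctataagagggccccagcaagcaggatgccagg
Elane: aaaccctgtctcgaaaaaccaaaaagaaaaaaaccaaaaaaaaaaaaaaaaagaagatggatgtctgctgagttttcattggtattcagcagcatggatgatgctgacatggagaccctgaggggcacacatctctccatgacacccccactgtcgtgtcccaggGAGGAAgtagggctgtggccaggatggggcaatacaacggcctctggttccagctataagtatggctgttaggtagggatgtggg
Ngp: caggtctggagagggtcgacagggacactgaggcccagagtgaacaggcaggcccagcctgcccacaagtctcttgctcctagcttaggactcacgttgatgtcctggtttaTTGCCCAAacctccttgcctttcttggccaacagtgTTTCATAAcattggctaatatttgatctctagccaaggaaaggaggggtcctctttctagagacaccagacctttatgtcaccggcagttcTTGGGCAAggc
Ltf: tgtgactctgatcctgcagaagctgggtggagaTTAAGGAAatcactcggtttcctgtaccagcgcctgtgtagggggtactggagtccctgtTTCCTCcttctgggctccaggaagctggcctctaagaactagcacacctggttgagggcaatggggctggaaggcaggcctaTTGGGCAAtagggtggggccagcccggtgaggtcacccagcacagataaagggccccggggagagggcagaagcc
In Prtn3 the GAGGAA lies 95 bases and in Elane 85 bases before the start site, in both on the gene's own strand and followed by gt. A match of letters is a description of the window and not evidence of a bound site.

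The 10 genes spanned a wide range of levels when compared per length (CPM per kilobase of the deposited gene length). In WT cells S100a8 stood at 1446 ± 584 and S100a9 at 1212 ± 410 CPM per kb (SD, n = 3), and their ranges overlapped. Ngp followed at 152.4 ± 14.03, Lcn2 at 88.0 ± 12.3 and Camp at 29.2 ± 3.77 CPM per kb, each apart from its neighbours. Ltf (15.6 ± 2.09) and Prtn3 (14.9 ± 6.08) overlapped, as did Elane (5.39 ± 2.83), Mpo (2.95 ± 1.44) and Ctsg (2.32 ± 0.805). Calprotectin was thus the most abundant and the 4 azurophil granule genes were the lowest, with Prtn3 level with Ltf. The same order was found in cells labelled DKO, from S100a8 at 1490 ± 198 to Ctsg at 0.920 ± 0.266 CPM per kb. In exosomes Lcn2 preceded Ngp and Prtn3 preceded Ltf, but the ranges of Lcn2 and Ngp overlapped in both genotypes and those of Prtn3 and Ltf overlapped in WT. S100a9 preceded S100a8 in exosomes labelled DKO, also with overlapping ranges.

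**Figure D1:**
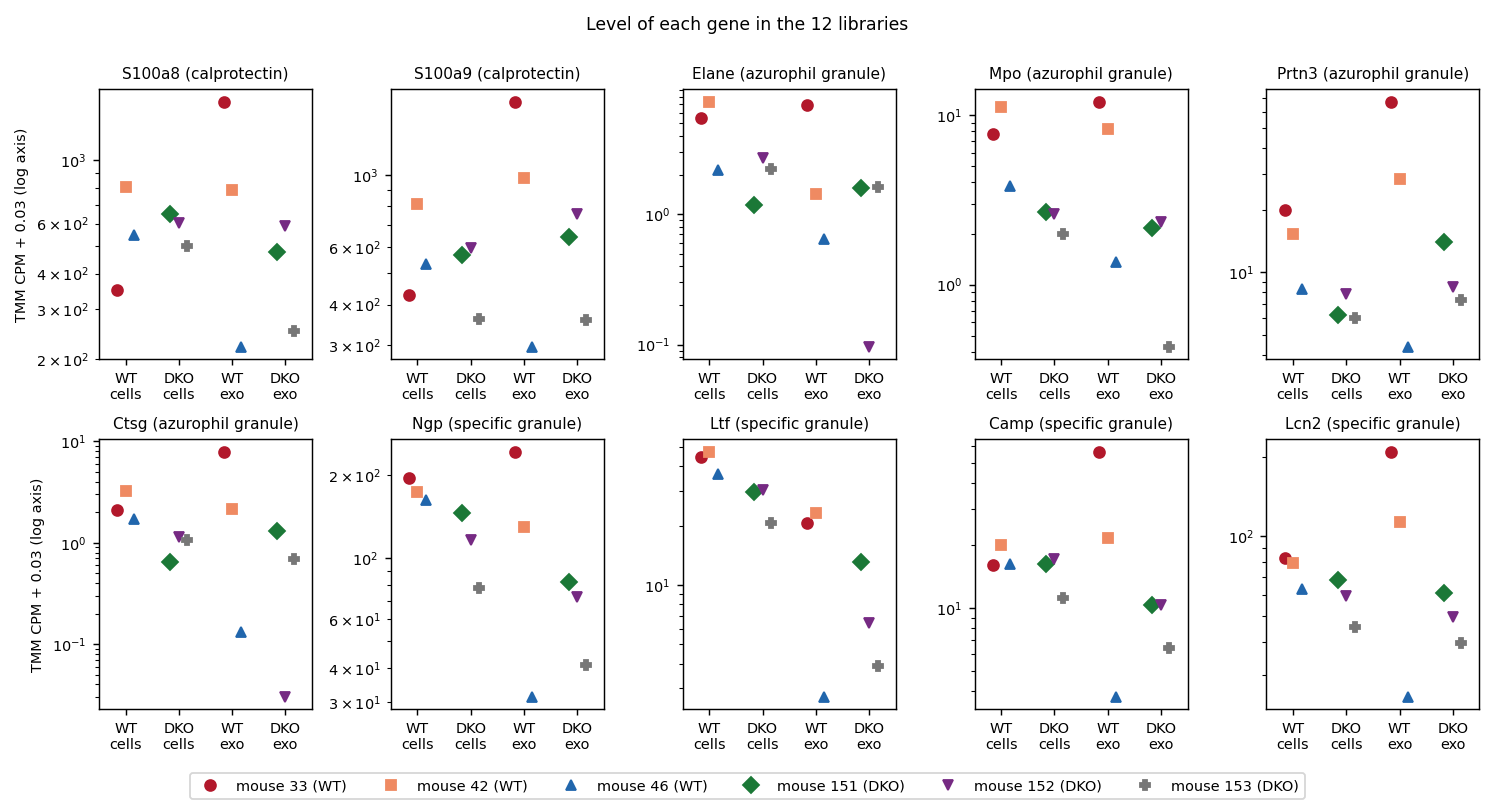
Level of each of the 10 genes in the 12 libraries, as CPM + 0.03 on a log axis, by group (WT cells, cells labelled DKO, WT exosomes, exosomes labelled DKO). Each symbol is 1 library and its shape and colour give the mouse. WT exosomes spread widely, with mouse 33 (red circles) at the top for all genes but Ltf and mouse 46 (blue triangles) at the bottom for all 10.

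Levels of S100a8 were 349, 806 and 546 CPM in WT cells (mice 33, 42 and 46, the order used throughout) and 651, 603 and 499 CPM in DKO-labelled cells (mice 151, 152 and 153, likewise). WT exosomes had 1611, 788 and 221 CPM, and DKO-labelled exosomes 475, 587 and 252 CPM. Mouse 33 thus had the lowest S100a8 level of the 6 cell libraries and the highest of the 6 exosome libraries. S100a9 ran alongside, with 427, 815 and 533 CPM in WT cells against 567, 595 and 363 CPM in DKO-labelled cells. For exosomes its levels were 1677, 979 and 297 CPM (WT) and 643, 760 and 359 CPM (DKO-labelled). Ranges of cells and exosomes overlapped for both genes in both genotypes. Per length, the ratio of S100a9 to S100a8 was 0.584 to 0.984 in the 6 cell libraries and 0.836 to 1.15 in the 6 exosome libraries, given as a description.

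The azurophil granule genes were detected at low levels. Mpo had 7.68, 11.1 and 3.77 CPM in WT cells against 2.64, 2.59 and 1.97 CPM in DKO-labelled cells, with no overlap. Prtn3, the most abundant of the 4, had 20.0, 15.3 and 8.23 CPM in WT cells against 6.17, 7.82 and 6.01 CPM in DKO-labelled cells, again with no overlap. A further gene without overlap was Ctsg, with 2.07, 3.23 and 1.68 CPM in WT cells against 0.617, 1.11 and 1.04 CPM in DKO-labelled cells. Elane, with 5.45, 7.28 and 2.15 CPM in WT cells against 1.15, 2.68 and 2.18 CPM in DKO-labelled cells, overlapped only through the WT male, mouse 46. All 4 azurophil granule genes were thus at their highest, among cells, in a WT female.

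For exosomes the azurophil granule genes rested on few reads in several libraries. WT exosomes had 67.2, 28.2 and 4.32 CPM of Prtn3, and DKO-labelled exosomes 14.02, 8.5 and 7.31 CPM. Those of Mpo were 11.95, 8.20 and 1.34 CPM (WT) and 2.12, 2.31 and 0.399 CPM (DKO-labelled). Levels of mouse 46 were the lowest in WT for both. Elane had 47, 29 and 6 counts in WT exosomes and 22, 1 and 12 in DKO-labelled exosomes. Ctsg had 54, 44 and 1 counts in WT exosomes and 18, 0 and 5 in DKO-labelled exosomes. The count of 0, in mouse 152, allows a level of up to 0.198 CPM, so differences of Ctsg and Elane that rest on mice 46 and 152 are poorly determined at this depth.

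Among the specific granule genes Ngp was the most abundant, with 195, 174 and 163 CPM in WT cells against 146, 116 and 77.8 CPM in DKO-labelled cells. Its exosome levels were 243, 129 and 31.3 CPM (WT) and 81.6, 72.1 and 40.8 CPM (DKO-labelled). Ngp was therefore tight among WT cells and spread widely among WT exosomes. Lcn2 had 82.9, 79.0 and 63.1 CPM in WT cells against 68.4, 59.4 and 45.3 CPM in DKO-labelled cells. Its exosome levels were 209, 113 and 24.7 CPM (WT) and 60.9, 49.7 and 39.5 CPM (DKO-labelled). Both genes gave overlapping ranges between cells and exosomes in WT.

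Ltf differed from the other 9 genes in that its exosome levels lay below its cell levels in every mouse. WT cells had 44.5, 47.5 and 36.4 CPM, and WT exosomes 20.5, 23.2 and 2.67 CPM. DKO-labelled cells had 29.8, 30.2 and 20.7 CPM, and DKO-labelled exosomes 13.03, 6.39 and 3.86 CPM. Camp had 16.1, 20.1 and 16.3 CPM in WT cells and 56.4, 21.7 and 3.70 CPM in WT exosomes, where mice 33 and 42 lay above and mouse 46 below all 6 cell libraries. Its DKO-labelled libraries had 16.2, 17.1 and 11.2 CPM for cells and 10.3, 10.3 and 6.38 CPM for exosomes, with no overlap.

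The first comparison asked how exosomes differed from cells in WT. No member of the list passed the test (adjusted p below 0.05, edgeR's quasi-likelihood test with Benjamini-Hochberg adjustment over all genes tested), whereas 38.3% of 12829 genes did, 18.7% as higher and 19.6% as lower in exosomes. The median log2 fold change was 0.57 over the 10 genes and -0.02 over all genes tested. Ltf was lowest, at -1.44 ± 0.61 (SE; adjusted p = 0.0964 in edgeR), and was the 1 member with an unadjusted p below 0.05, as 6250 of the 12829 genes had. It was also the 1 member with exosomes below cells in every pairing of libraries, which held for 30.6% of all genes. Prtn3 had the highest estimate, 1.21 ± 0.78 (adjusted p = 0.251), with a 95% interval from -0.59 to 3.01. S100a8 at 0.64 ± 0.62, S100a9 at 0.75 ± 0.55, Camp at 0.65 ± 0.73 and Lcn2 at 0.64 ± 0.60 had much the same size of estimate and of error. In bulk samples such as these, fewer cells of a type and less RNA per cell cannot be told apart, and in exosomes neither can be told apart from the RNA extraction, which differed between the compartments.

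Single libraries decided the result in WT. Without the WT exosomes of mouse 46, 5 members were called: S100a9, Prtn3, Camp and Lcn2 as higher in exosomes and Ltf as lower. That fit called 41.8% of all genes. Without both libraries of mouse 46, 3 members were called, Prtn3 and Lcn2 as higher and Ltf as lower, against 26.4% of all genes. Without the WT exosomes of mouse 33, the library that stood apart, Elane was called lower and no other member was called, against 41.9% of all genes. Ltf was also called lower with total-count scaling, with DESeq2 and in a fit on all 12 libraries.

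In the libraries labelled DKO, 3 of the 10 genes fell in exosomes, all of them specific granule genes, and none rose. By the same edgeR test 47.5% of 12316 genes were called, 23.7% as lower, so 3 lower of 10 is near the share among all genes. Ltf fell by 1.76 ± 0.34 on the log2 scale (adjusted p = 0.00167 in edgeR), which corresponds to a level 3.38-fold lower. Ngp fell by 0.79 ± 0.26 (adjusted p = 0.0251) and Camp fell by 0.71 ± 0.25 (adjusted p = 0.0333). The exosomes lay wholly below the cells for Ltf and Camp, as they did for 29.7% of genes. Lcn2, the remaining specific granule gene, stood at -0.20 ± 0.19 (adjusted p = 0.405), and Prtn3 had the highest estimate at 0.58 ± 0.28 (adjusted p = 0.11). With the mouse as a block, which pairs the cells and exosomes of an animal, S100a8 was called as well, at -0.49 (adjusted p = 0.0237). It was also called lower without a filter on low counts, and so in 2 of 17 settings. Ltf was called in 17 of 17 settings, and Ngp and Camp in 10 of 17 each. Without the exosomes of mouse 152, which stood apart, Ltf and Camp were called and Ngp was not.

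**Figure D2:**
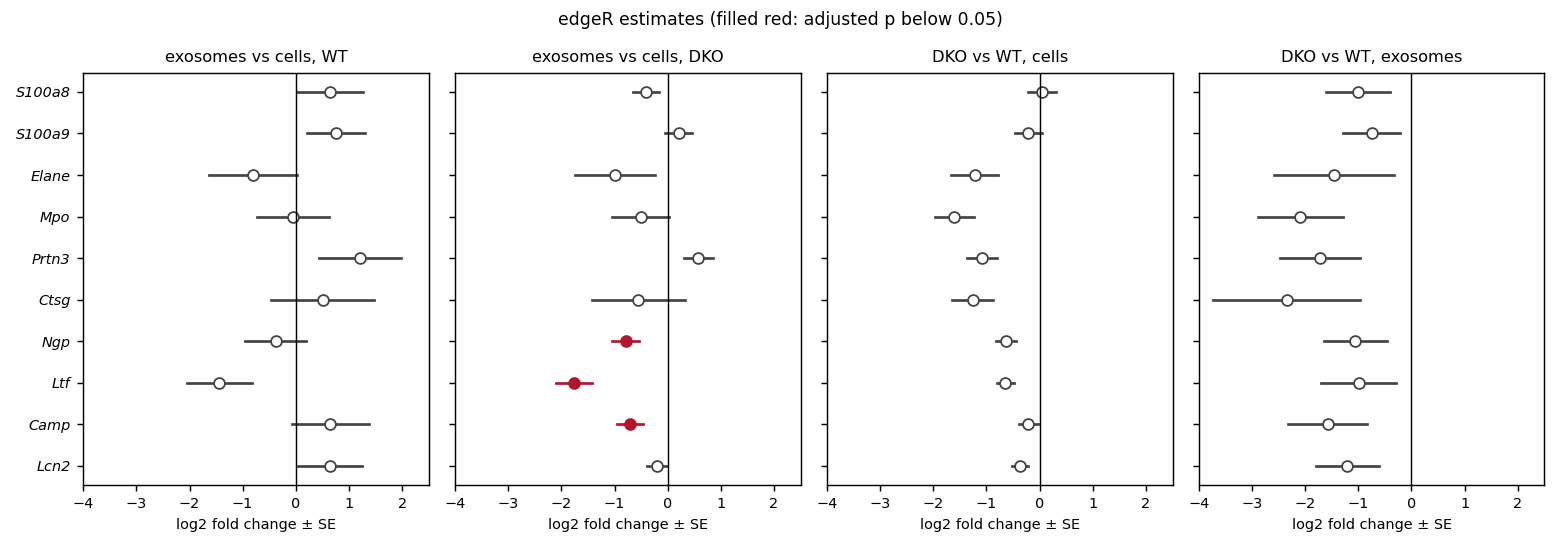
edgeR log2 fold changes (x axis) of the 10 genes, with bars of 1 SE, in the 4 pairwise comparisons. Filled red points have an adjusted p below 0.05: Ngp, Ltf and Camp in exosomes against cells labelled DKO. WT cells and WT exosomes enter 2 panels each, as do the libraries labelled DKO, so the panels are not independent.

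The exosome-to-cell difference of the genes varied from mouse to mouse. In mouse 33 the median difference over the 10 genes was 1.54 on the log2 scale and 9 of 10 genes, all but Ltf, were higher in exosomes. In mouse 46 it was -1.57 and 0 of 10 were higher. Mouse 42 lay between, at -0.23 with 4 of 10 higher. The 3 mice labelled DKO were closer together, at -0.24, -0.47 and -0.69 for mice 151, 152 and 153. The median over all genes was between -0.15 and -0.01 in each of the 6 mice.

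**Figure D3:**
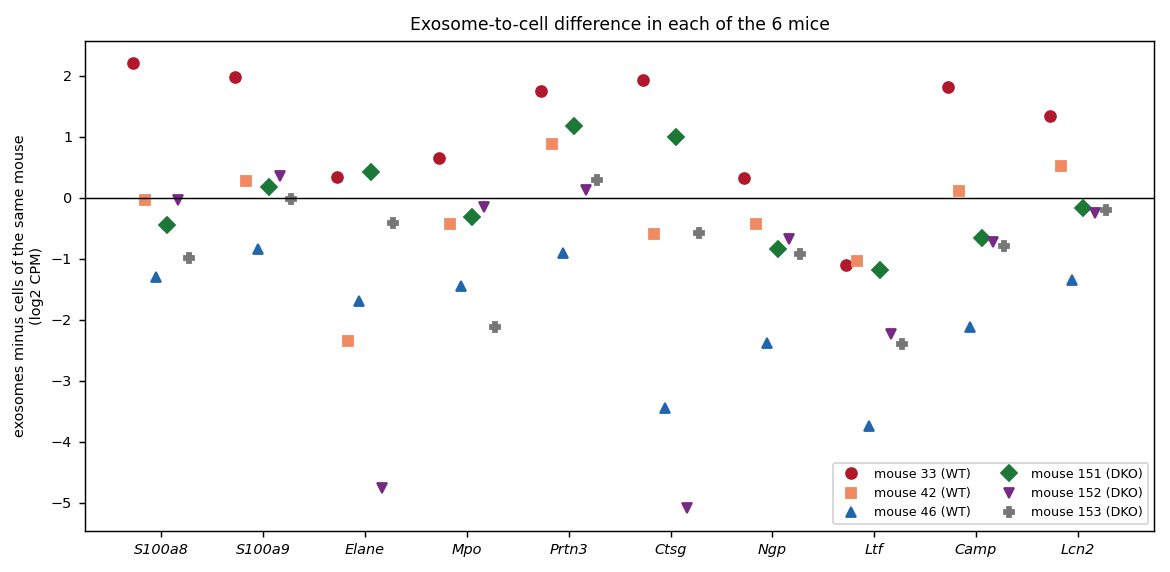
Exosome minus cell level of the same mouse (log2 CPM, y axis) for each gene, 1 symbol per mouse. Mouse 33 lies above 0 for 9 genes and mouse 46 below 0 for all 10. The values of mouse 152 for Elane and Ctsg rest on 1 and 0 counts in exosomes.

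The libraries of a group differed among themselves in these genes more than in most genes, except in the specific granule genes of WT cells. The SD of log2 CPM over the 3 WT exosome libraries was 1.28 (S100a9) to 2.90 (Ctsg), at the 89.3rd to 99.1st percentile of 12970 genes, for which the median was 0.37. Among WT cells it ran from 0.13 (Ngp) to 0.92 (Elane), with the 4 specific granule genes at 0.13 to 0.21 and the 4 azurophil granule genes at 0.48 to 0.92. In cells labelled DKO it was 0.20 to 0.62. In exosomes labelled DKO it was 0.31 (Lcn2) to 2.86 (Ctsg), and Elane, at 2.33, was wider there than in WT exosomes, at 1.72. The median percentile of the 10 genes was 93.2 in WT exosomes, 88.6 in WT cells, 81.3 in exosomes and 78 in cells labelled DKO. In WT cells this median hides a split. There Ngp, Camp, Ltf and Lcn2 lay at the 32.3rd, 48th, 52.9th and 55.6th percentile, near or below the median SD of 0.19 over all genes. In each other group no member lay below the 57.3rd percentile. The order mouse 33, mouse 42, mouse 46 from high to low was found for 9 of the 10 genes in WT exosomes, Ltf being the exception, and for 26.2% of all genes. In WT cells 3 of the 10 genes and 18.8% of all genes had this order. Leaving out libraries here was chosen after seeing the data. Over the other two WT exosome libraries, the SD was 0.77 (Elane) to 2.69 (Ctsg) without mouse 33, with a median percentile of 97.4, and 0.12 (Ltf) to 1.61 (Elane) without mouse 46, with a median percentile of 77.5. Without mouse 152 the SD in exosomes labelled DKO was 0.04 (Elane) to 1.57 (Mpo), with a median percentile of 87.9.

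As a share of all counts, the 10 genes together took 0.127% to 0.225% in WT cells and 0.110% to 0.156% in cells labelled DKO. In WT exosomes they took 0.327% in mouse 33, 0.195% in mouse 42 and 0.05% in mouse 46, and in exosomes labelled DKO 0.0741% to 0.139%. The 95% Wilson intervals, which cover counting error only, were far narrower than the gaps between WT exosome libraries, for example 0.0487% to 0.0513% in mouse 46. Highest over lowest of the summed CPM in WT exosomes was 6.36 for calprotectin, 14.7 for the azurophil and 8.48 for the specific granule genes. Without mouse 33 it was 3.42, 6.26 and 4.61, and without mouse 46 it was 1.86, 2.35 and 1.84. The same ratio in WT cells was 2.09, 2.33 and 1.21.

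**Figure D4:**
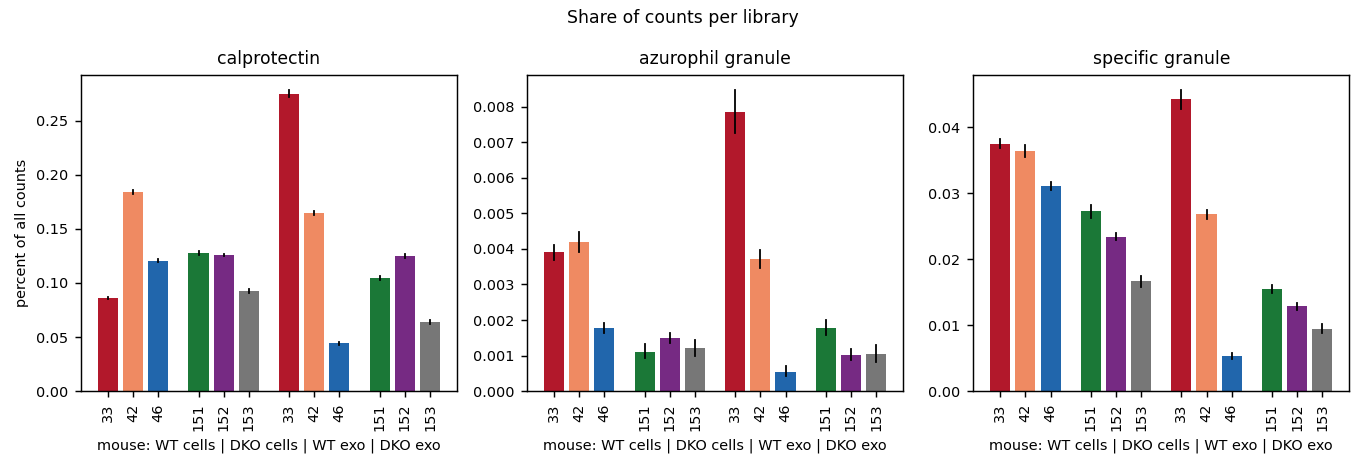
Percent of all counts (y axis, from 0) held by calprotectin, azurophil granule and specific granule genes in each library, with 95% Wilson intervals as black lines. Bars are grouped as WT cells, cells labelled DKO, WT exosomes and exosomes labelled DKO, with mouse numbers below. Among WT exosomes, mouse 33 holds the tallest and mouse 46 the shortest bar in all 3 panels.

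Between genotypes, the comparison asked what differed in mice labelled DKO. In cells no member was called, against 0.404% of 13106 genes, although 9 of the 10 estimates were below 0. An unadjusted p below 0.05 was found for 7 members and for 1415 of the 13106 genes. The median log2 fold change was -0.64 over the 10 genes and -0.01 over all genes. Mpo was lowest, at -1.60 ± 0.37 (SE; unadjusted p = 0.00128 and adjusted p = 0.13 in edgeR), followed by Ctsg at -1.26 ± 0.38 (adjusted p = 0.293), Elane at -1.22 ± 0.45 (adjusted p = 0.4) and Prtn3 at -1.08 ± 0.29 (adjusted p = 0.211). The specific granule genes Ltf at -0.65 ± 0.16 (adjusted p = 0.153) and Ngp at -0.63 ± 0.18 (adjusted p = 0.273) came next. Cells labelled DKO lay wholly below WT cells for 5 members, Mpo, Prtn3, Ctsg, Ngp and Ltf, and for 9.03% of all genes. S100a8 at 0.05 ± 0.27 and S100a9 at -0.21 ± 0.26 gave the smallest estimates along with Camp. DESeq2 called Mpo, Prtn3 and Ltf, the fit without a filter on low counts called Mpo and Ltf, and the fit without WT cells of mouse 46 called Mpo and Prtn3, all as lower. Those fits called 1.46%, 1.01% and 0.4% of all genes.

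Sex and genotype were partly confounded, since the WT group held 2 females and 1 male. In cells, both WT females lay above all 4 males, the WT male included, for 7 genes: the 4 azurophil granule genes, Ngp, Ltf and Lcn2. The WT male, mouse 46, still lay above the 3 males labelled DKO for Mpo, Prtn3, Ctsg, Ngp and Ltf. The share of all genes with either order was not computed, so these counts are only a description. Set against the WT male alone, the mean of the cells labelled DKO was 0.637-fold for Mpo, 0.809-fold for Prtn3, 0.550-fold for Ctsg, 0.695-fold for Ngp and 0.738-fold for Ltf, each resting on 1 WT mouse. With sex as a covariate, where the WT side rests on that same mouse, the estimate was -0.62 for Mpo and -0.03 for Elane, and no member was called.

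In exosomes no member was called between genotypes either, against 0.0332% of 12064 genes. All 10 estimates were below 0, from -0.75 ± 0.53 for S100a9 to -2.35 ± 1.38 for Ctsg, and the ranges of the groups overlapped for 10 of 10 genes, whereas for 6.66% of all genes the DKO-labelled exosomes lay wholly below. Mpo at -2.09 ± 0.80 and Prtn3 at -1.73 ± 0.76 were the 2 members with an unadjusted p below 0.05 (adjusted p = 0.552 for each in edgeR). Of the 12064 genes, 1004 had such an unadjusted p. The direction rested on the 2 WT females. Exosomes of the WT male lay below all 3 males labelled DKO for 7 genes: S100a8, S100a9, Prtn3 and the 4 specific granule genes. For all genes the share with this order was not computed. With sex as a covariate, where the WT side rests on that same mouse 46, all 10 estimates turned positive, and none was called. Without the WT exosomes of mouse 46, Prtn3, Camp and Lcn2 were called as lower, against 1.15% of all genes, and without those of mouse 33, or the DKO-labelled exosomes of mouse 152, no member was called. Leaving out 1 library at a time moved the estimate between -3.53 and -0.86 for Ctsg, -2.07 and -0.51 for Camp, -1.44 and -0.20 for S100a8 and -1.16 and -0.12 for S100a9.

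The interaction asked whether the exosome-to-cell difference itself differed between genotypes. No gene was called by edgeR (0% of 12970 genes; 776 at an unadjusted p below 0.05) or by DESeq2. The 10 members had estimates from -0.17 ± 1.22 for Elane to -1.34 ± 0.86 for Camp, with adjusted p from 0.715 to 0.974. When libraries were left out, the estimate ran from -1.85 to -0.30 for Camp, -1.49 to -0.25 for S100a8 and -1.30 to -0.10 for Lcn2. That Ngp and Camp were called in the libraries labelled DKO and not in WT therefore does not show a difference between genotypes.

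Other genes of the same biology were taken from lists that held no member. Of 28 other neutrophil granule proteins, 26 were tested, and in WT 5 were higher and 5 lower in exosomes, with 4 higher and 10 lower in libraries labelled DKO. The counts of this list and of those that follow stand beside 38.3% of all genes called in WT and 47.5% in libraries labelled DKO, and the 10 of 26 in WT is near that share. Mmp25, a membrane-anchored metalloproteinase of neutrophils, and Itgb2l, an integrin-related gene, fell most. The log2 fold change of Mmp25 was -4.47 ± 0.28 in WT (adjusted p = 0.000276 in edgeR) and -5.02 ± 0.27 in those labelled DKO (adjusted p = 5.18e-07). That of Itgb2l was -4.38 ± 0.57 in WT and -4.39 ± 0.40 in those labelled DKO. Ctsc, the protease that activates the azurophil granule serine proteases, fell as well, at -1.13 ± 0.17 (WT) and -1.14 ± 0.13 (labelled DKO). Cybb, the catalytic subunit of the phagocyte oxidase, fell by 1.38 ± 0.20 in WT. In libraries labelled DKO its mean was likewise lower in exosomes, at 494.9 CPM, than in cells, at 1202 CPM. Anxa1, an annexin stored in neutrophil granules but made by many cell types, rose by 1.10 ± 0.14 in exosomes labelled DKO. Its mean was also higher in WT exosomes, at 3430 CPM, than in WT cells, at 1536 CPM.

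Of the other S100 genes, 6 of 13 were tested, and 3 rose in WT exosomes and none fell, with 1 higher and 1 lower in libraries labelled DKO. S100a1 rose, at 1.30 ± 0.19 in WT and 0.76 ± 0.20 in libraries labelled DKO on the log2 scale (adjusted p = 0.00306 and 0.00895 in edgeR). S100a6 rose by 0.77 ± 0.24 in WT, and S100a4 fell by 0.53 ± 0.16 in those labelled DKO. Of the receptors of calprotectin and granule proteins, 11 of 14 were tested in WT, where 1 was higher and 3 were lower in exosomes, and 10 in libraries labelled DKO, where 3 were lower. Itgam, a subunit of the integrin Mac-1, fell, at -1.35 ± 0.17 (WT) and -1.16 ± 0.21 (labelled DKO), and so did Lrp1, a receptor for lactoferrin, at -0.91 ± 0.21 and -0.47 ± 0.17. Tlr4, a receptor that S100A8 can activate, fell by 0.50 ± 0.17 in exosomes labelled DKO. Its mean was also lower in WT exosomes, at 57.4 CPM, than in WT cells, at 108.9 CPM. There the ranges of Tlr4 overlapped, at 30.6 to 83.1 CPM in exosomes and 73.9 to 129.8 CPM in cells. Cd36, a scavenger receptor that can bind S100A8 and S100A9, was the 1 receptor called between genotypes in cells, where it rose by 0.74 ± 0.12 in those labelled DKO (adjusted p = 0.0336).

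Among 10 tested inhibitors of granule proteases, 3 were higher and 2 lower in WT exosomes, and 2 were higher and 2 lower in those labelled DKO. Serpinb6b fell, at -2.44 ± 0.23 (WT) and -2.96 ± 0.23 (labelled DKO), and Wfdc17 rose, at 1.82 ± 0.24 and 0.86 ± 0.19. Cstb, the cytosolic cystatin that inhibits cysteine cathepsins, rose by 1.13 ± 0.19 in WT. In libraries labelled DKO its mean was 1026 CPM in exosomes and 804.6 CPM in cells. Of the 10 granulocyte transcription factors, 4 were higher and 1 lower in WT exosomes, and 6 were higher and 1 lower in those labelled DKO. Cebpb, at 1.57 ± 0.40 and 2.20 ± 0.12, Cebpa, at 1.38 ± 0.27 and 1.65 ± 0.13, and Spi1, the gene of PU.1, at 0.89 ± 0.23 and 1.27 ± 0.13, rose in both. None of the 4 lists of granule proteins, S100 genes, inhibitors and transcription factors had a call between genotypes.

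Of 12 markers of mature neutrophils, 1 was called higher and 3 lower in WT exosomes, and 1 higher and 5 lower in exosomes labelled DKO, beside the 38.3% and 47.5% called among all genes. Ly6g, the defining surface marker, stood at 1.66 to 3.92 CPM in cells and at 6.56, 1.496 and 0.309 CPM in WT exosomes of mice 33, 42 and 46, and Cxcr2, the receptor for neutrophil chemokines, at 3.11 to 5.76 CPM in cells and 0.133 to 1.02 CPM in exosomes. Cxcr2 fell in exosomes, at -2.85 ± 0.48 in WT and -3.45 ± 0.51 in libraries labelled DKO (adjusted p = 0.00454 and 0.000301 in edgeR). The summed level of the 12 mature neutrophil markers was 1257 to 1366 CPM in WT cells, 1393 to 1721 CPM in cells labelled DKO, 1031 to 1116 CPM in WT exosomes and 1011 to 1469 CPM in those labelled DKO. Most of this was Mmp8, at 993 to 1461 CPM in cells and 697 to 867 CPM in WT exosomes, lowest there in mouse 33. Other genes of the list, chosen after their values were seen, were highest in mouse 33 and lowest in mouse 46 among WT exosomes, as Ly6g was: Retnlg at 4.37, 3.38 and 0.206 CPM, Stfa2l1 at 61.8, 25.7 and 7.71 CPM and Cd177 at 78.4, 65.6 and 7.71 CPM. In mouse 46 the levels of Ly6g and Retnlg rest on 3 and 2 counts. Highest over lowest among WT exosomes was 8.01 to 21.25 for Ly6g, Retnlg, Stfa2l1 and Cd177. For the rest of the list it was only 1.24 (Mmp8) to 2.48 (Cxcr2), so the list as a whole did not show this gradient. The sum of the 12 markers of granulocyte-monocyte progenitors was 1032 to 1193 CPM in WT cells and 1126 to 1181 CPM in cells labelled DKO, and 878 to 1026 and 769 to 955 CPM in the exosomes. Ctsc, at 428 to 581 CPM, and Srgn, the proteoglycan core protein serglycin, at 401 to 597 CPM, made up most of this sum in cells. In cells between genotypes, where 1415 of 13106 genes had an unadjusted p below 0.05, none of the 11 tested genes of the list was called. An unadjusted p below 0.05 was found for 6 of the 11, all with an estimate below 0. These were Prss57 (-1.16 ± 0.47), Ms4a3 (-0.96 ± 0.34), Myb (-0.86 ± 0.28), Cd34 (-0.58 ± 0.16), Kit (-0.56 ± 0.19) and Cebpe (-0.50 ± 0.18), with adjusted p from 0.238 to 0.429 in edgeR. In exosomes against cells of WT, 3 of 11 were higher (Cebpa, Ms4a3 and Gfi1) and 3 lower (Kit, Cd34 and Ctsc). In libraries labelled DKO, 4 of 10 were higher (the same 3 and Cebpe) and 5 lower (Kit, Cd34, Ctsc, Fcnb and Srgn). The largest change in the list was that of Kit, the stem cell factor receptor, at -4.34 ± 0.41 (WT) and -5.39 ± 0.57 (labelled DKO).

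Markers of some other cell types moved with some of these results. Between genotypes, the summed level of 9 B cell and plasma cell markers was 95.04 to 186 CPM in WT cells and 44.4 to 70.0 CPM in cells labelled DKO, and that of 8 mast cell and basophil markers was 27.7 to 33.3 and 14.7 to 17.9 CPM. That of 5 megakaryocyte and platelet markers was higher in cells labelled DKO, at 375 to 507 CPM against 293 to 353 CPM. Pf4 and Ppbp made up most of this sum, in exosomes as well. Their means were 305.8 and 118.6 CPM in cells labelled DKO and 251.5 and 71.0 CPM in WT cells. Ighm, the IgM heavy chain, fell by 1.39 ± 0.24 in cells labelled DKO (adjusted p = 0.0496 in edgeR), and Itga2b, the platelet integrin subunit, fell by 1.57 ± 0.28 (adjusted p = 0.0366). The other two platelet genes tested, the chemokine genes Ppbp at 0.75 ± 0.16 (adjusted p = 0.102) and Pf4 at 0.30 ± 0.16 (adjusted p = 0.518), had estimates above 0. In exosomes the dendritic cell sum was 3223 to 3606 CPM in those labelled DKO and 5166 to 6146 CPM in WT, with no overlap, beside the 10 estimates below 0. Over WT exosomes the summed level of 5 eosinophil markers ran from 37.9 to 185 CPM and was highest in mouse 33 and lowest in mouse 46, as for 9 of the 10 genes. In mice 33, 42 and 46 the mast cell and basophil sum, at 42.1, 31.3 and 13.2 CPM, the B cell and plasma cell sum, at 54.9, 31.7 and 17.4 CPM, and the megakaryocyte and platelet sum, at 746, 564.5 and 502 CPM, had the same order. The progenitor sum, at 1026, 904 and 878 CPM, and the T and NK cell sum, at 1.31, 0.82 and 0.72 CPM, shared it. The monocyte sum, at 335, 344 and 361 CPM, and the macrophage sum, at 1636, 1784 and 1793 CPM, had the opposite order. The dendritic cell sum (6146, 5166 and 5773 CPM), the mature neutrophil sum (1080, 1116 and 1031 CPM) and the erythroid sum had neither order. Among all genes, 26.2% had the order 33, 42, 46 in WT exosomes. The part of these cell types in the results was not tested.

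The genes with the profile most like each group over the 12 libraries were found by the root-mean-square difference of centred log2 CPM among 10843 genes. For calprotectin they were the stefin-family genes Stfa2l1 (0.193), Cstdc5 (0.220), Stfa2 (0.261), Stfa3 (0.265) and Cstdc4 (0.310). These are near-identical copies whose reads could be split by the counting, so their single values are uncertain. For the specific granule genes they were Chil1 (0.188), Pglyrp1 (0.272), Nod2 (0.312), Atp2a3 (0.318) and Ly6a2 (0.343). Pglyrp1, a peptidoglycan recognition protein of specific granules, stood at 25.6, 14.9 and 4.94 CPM in WT exosomes of mice 33, 42 and 46 and at 23.3 to 24.5 CPM in WT cells. For the azurophil granule genes the nearest were Itga2b (0.580), Zfp870 (0.678), Arid5a (0.698), Tet2 (0.700) and Pecam1 (0.710), at larger differences. The mean azurophil profile also varied more, with a root mean square of 1.3 against 0.691 for calprotectin and 0.894 for the specific granule genes. The differences are thus not directly comparable between groups, and in exosomes of mouse 152 Elane and Ctsg rest on 1 and 0 counts. Among the 10 genes themselves the closest pairs were S100a8 with S100a9 (0.284) and Camp with Lcn2 (0.298), and the farthest were calprotectin and Ctsg, at 1.73 and 1.80. Without WT exosomes of mouse 33 and exosomes labelled DKO of mouse 152, a choice made after seeing the data, 5 of the 5 nearest genes were shared for calprotectin, 3 of 5 for the specific granule genes and 1 of 5 (Itga2b, at 0.469) for the azurophil granule genes. The farthest pair was then Prtn3 and Ltf, at 1.19.

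**Figure D5:**
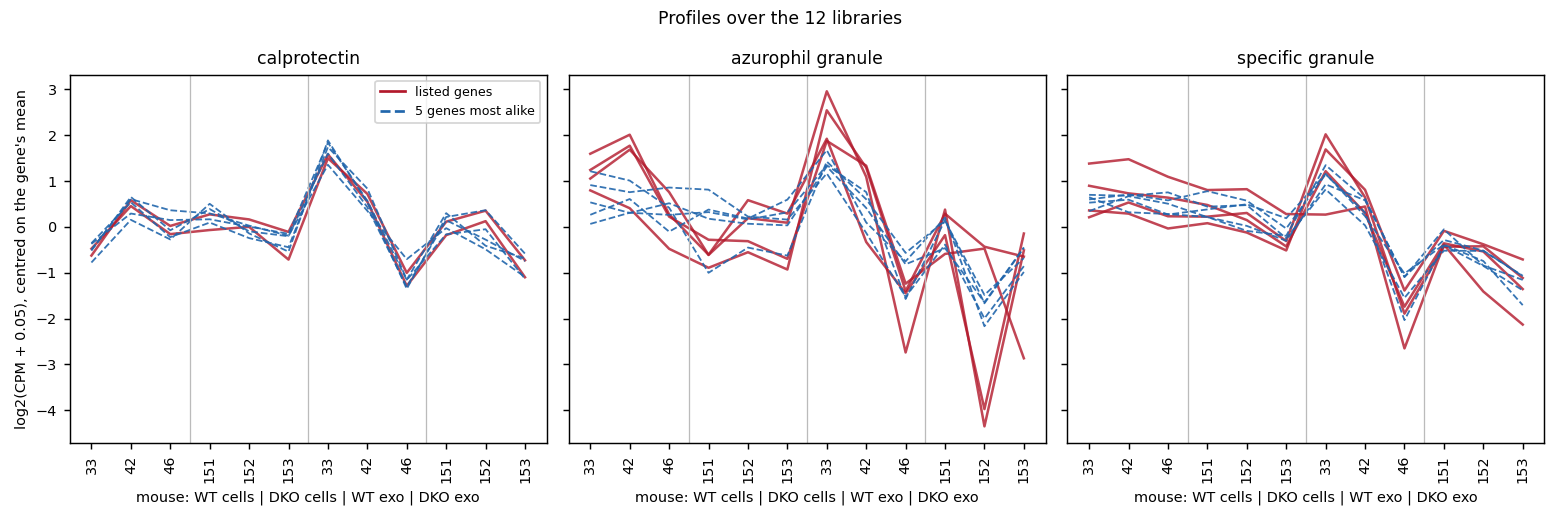
Centred profiles, log2(CPM + 0.05) minus the gene's mean (y axis), over the 12 libraries (x axis, mouse number within group) for the listed genes (red) and the 5 genes most alike (blue, dashed). Elane and Ltf peak in WT cells of mouse 42 and the other 8 genes in WT exosomes of mouse 33. The lowest azurophil values are those of Elane and Ctsg in exosomes of mouse 152.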

How the data were processed

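The authors deposited raw counts for each gene, with its length, made with featureCounts on mm10 per the submitters' processing notes. Versions, aligner, annotation and strandedness were not given in the sources used here, so reads of overlapping genes on opposite strands cannot be separated. Per the labels' protocols, cell RNA was extracted with Tri-Reagent and vesicle RNA with Trizol LS and a Qiagen kit, and TruSeq libraries of 200 ng RNA were read as 80 bp pairs. Symbols were matched by identifier to RefSeq (GRCm38.p6) for 25275 of 27179 genes.

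Pairwise comparisons used only their 6 libraries, and the interaction all 12, in edgeR 4.0.16 (R 4.3.3): filterByExpr by group, TMM, robust quasi-likelihood F test, Benjamini-Hochberg adjustment over all genes tested, called at an adjusted p below 0.05. SEs are the size of the log2 fold change divided by the square root of F, and intervals use the t distribution with edgeR's total degrees of freedom. CPM are counts over TMM-scaled totals. Total counts of 7215083 to 32273898 per library limit the precision of Elane, Mpo and Ctsg in exosomes. Log2 CPM used a prior count of 0.5. The scripts were tested on simulated counts. Groups, sex and mouse came from the labels. The 3 libraries of a group are separate mice, and no pair agreed within sampling noise.

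Mouse numbers pair cells with exosomes of the same animal. Deviations of the paired libraries from their group means correlated at 0.00595 to 0.123 over the 6 mice, and 6 of 6 matched their own mouse best. Blocking on the mouse was an alternative, as were other filters, RLE and total-count scaling, DESeq2 1.42.0, all 12 libraries in 1 fit, sex as a covariate and leaving out libraries. The 10 genes, the gene lists and the tests were chosen with earlier results of these data known. Named by rule were the 10 genes, Sidt1 and Sidt2, up to 4 called genes with the smallest p per list and comparison, and the 5 genes with a mean log2 CPM above 1 nearest in profile to each group. Further genes of the lists were named outside this rule, some after their values were seen, and not all of them were called.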

Additional observations from a re-analysis of the deposited data

How the results depend on the processing

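With the mouse as a replicate block, 0 members were called in WT (Ctsg turned to -0.31), 4 in libraries labelled DKO and 0 in the interaction (Elane turned to 0.054). The block changed no other call of a member. In exosomes against cells of WT, 1 member (Ltf) was called under total-count scaling, 1 under DESeq2 and 1 with all 12 libraries in the fit, and in those labelled DKO 1 (Ltf) with all 12 libraries. Leaving out libraries gave 99 to 5708 genes and 0 to 5 members called in WT (99 genes without both libraries of mouse 42) and 3929 to 5980 genes and 1 to 3 members in libraries labelled DKO. In cells between genotypes, 202 genes and 2 members were called without a filter, 192 and 3 by DESeq2, 7 genes with all 12 libraries and 11 with sex as a covariate, and 5 to 119 genes and 0 to 2 members when libraries were left out. S100a8 turned to -0.048 under total-count scaling. In exosomes between genotypes, 20 genes were called without a filter, 33 by DESeq2, 15 with all 12 libraries, 14 with sex as a covariate, and 3 to 144 genes and 0 to 3 members when libraries were left out.

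With sex as a covariate, where the WT side rests on 1 male, the estimates in exosomes between genotypes turned to 0.98 for S100a8, 0.97 for S100a9, 0.73 for Elane, 0.31 for Mpo, 1.20 for Prtn3, 2.51 for Ctsg, 1.05 for Ngp, 1.54 for Ltf, 1.28 for Camp and 1.01 for Lcn2. Elane turned to 0.10 in the interaction under total-count scaling.

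Leaving out libraries turned signs in WT exosomes against cells, with ranges of -0.41 to 1.08 for S100a8, -0.064 to 1.17 for S100a9, -0.54 to 0.42 for Mpo, -0.93 to 1.06 for Ctsg, -1.10 to 0.069 for Ngp, -0.45 to 1.14 for Camp and -0.074 to 1.10 for Lcn2. In those labelled DKO the ranges were -0.018 to 0.47 for S100a9 and -2.05 to 0.31 for Ctsg. Between genotypes they were -0.21 to 0.40 for S100a8 and -0.40 to 0.10 for S100a9 in cells and -1.93 to 0.017 for Elane in exosomes. In the interaction they were -0.96 to 0.10 for S100a9, -0.71 to 1.19 for Elane, -0.91 to 0.092 for Mpo, -1.13 to 0.37 for Prtn3, -2.33 to 0.36 for Ctsg, -0.86 to 0.33 for Ngp and -0.90 to 0.15 for Ltf. Where a fit left 1 or 2 libraries in a group, they were taken to vary like the others.

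Without mitochondrial genes and the 20 most abundant others in the denominator, the share of the 10 genes was 0.161%, 0.287% and 0.194% in WT cells, 0.208%, 0.202% and 0.148% in cells labelled DKO, 0.457%, 0.274% and 0.0779% in WT exosomes and 0.176%, 0.198% and 0.0988% in those labelled DKO. Apart from the construction of each alternative, the cause of these shifts was not tested.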

Other observations

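A few transcripts of other granulocyte genes, chosen after their values were seen, were ordered over the WT exosomes of mice 33, 42 and 46 as 9 of the 10 genes were. Ms4a3, a marker of granulocyte-monocyte progenitors, stood at 93.5, 40.9 and 6.48 CPM in WT exosomes and at 4.53, 8.85 and 4.66 CPM in WT cells. Cd177, a neutrophil surface protein, stood at 78.4, 65.6 and 7.71 CPM in those exosomes, and Prg2, the eosinophil major basic protein, at 114, 44.8 and 7.20 CPM. The same order was found for 26.2% of all genes. Highest over lowest in WT exosomes was 14.44 for Ms4a3, 10.16 for Cd177 and 15.81 for Prg2. Other genes of the same lists were nearly level there, at 1.303 for Srgn, 1.238 for Ctsc, 1.495 for Siglecf and 1.312 for Csf3r. Ms4a3 was called higher in exosomes in WT, at 2.99 ± 0.81 (adjusted p = 0.0231 in edgeR), and in libraries labelled DKO, at 1.77 ± 0.39 (adjusted p = 0.0037). Cd177 was called higher as well, at 2.47 ± 0.69 and 1.58 ± 0.39. The calls of Ms4a3 and Cd177 were not repeated with libraries left out. Anxa1 had the opposite order in WT exosomes, at 2708, 3529 and 4053 CPM, and so did Mmp8, at 697, 828 and 867 CPM.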
